A study of Sus scrofa with 33 samples.

Results

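Cytosolic ribosomal protein genes were followed in the right ventricle of 11 pigs through acute pressure overload by pulmonary banding. In some of these pigs a shunt was added while banding continued. The members were the genes whose only symbol in the platform annotation was that of an RPL, RPLP, RPS or RPSA gene, without the RPS6 kinases. This gave 64 of 6765 genes with a single symbol. Each gene was read from its probe set with the highest mean over the 33 arrays. By their known roles they comprised 31 large subunit proteins, 24 small subunit proteins and 3 proteins of the P-stalk, which together are called the 58 canonical subunits here. There were also 5 relatives encoded by separate genes (RPL7L1, RPL22L1, RPL26L1, RPL36AL and RPS27L) and 1 gene that carries the name but encodes no subunit, RPS19BP1. A further 20 pig symbols of the same form in RefSeq, among them RPL3L, RPL10 and RPS3, were not analysed here.

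Biopsies came from the right ventricular free wall of each pig at 3 times. The first was taken at baseline, before banding, and the next after 120 min of pulmonary banding, which narrows the outflow of the right ventricle and was used to bring on its failure. In the control arm (5 pigs) banding alone then continued for 60 min to the last biopsy. The labels of the shunt arm (6 pigs) give 60 min of banding plus shunt for that biopsy. There a modified Glenn shunt, which leads blood of the superior vena cava straight into the pulmonary artery, was in place for those 60 min. All pigs were banded, so no group used here shows time and repeated biopsy alone, and the arms were treated alike up to 120 min. The labels name no age, sex or breed.

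The cytosolic ribosome joins a small subunit, which reads the mRNA, to a large subunit, which forms the peptide bond. Most of its proteins are needed in equal numbers, so their genes are usually expressed together and at high level. Their mRNAs begin with a terminal oligopyrimidine (TOP) tract through which mTOR controls their translation. Some ribosomal proteins have close relatives that can take their place or act in ribosome assembly, and some, such as RPL5, RPL11 and RPL23, can bind MDM2 and so raise p53. In the growing heart, ribosome production is part of hypertrophy.

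Values were log2 signals of an Affymetrix array made comparable by RMA, and changes are differences of log2 signals, with standard errors (SE) from limma and p-values adjusted over 23999 probe sets, with a threshold of 0.05. The array medians lay between 6.10 and 6.17. The spiked-in controls divided the arrays into 3 sets, which were shunt pigs 1 to 4, shunt pigs 5 and 6, and control pigs 1 to 5, so set and arm cannot be told apart in any comparison between the arms. Ventricular cardiomyocyte markers (11 of 13 measured) had a mean signal between 13.7 and 14.0 on every array, so the labelled tissue carried its defining markers.

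Most members gave bright and steady signals. The mean signal of 59 of the 64 was above the 90th percentile of all probe sets (9.22), and that of 50 was above the 99th (12.5). The canonical subunits above the 90th percentile numbered 54 of 58 and had mean signals from 11.4 to 14.0. The other 4 canonical genes were RPL37 at 8.45 and RPL30, RPL26 and RPS15A at 4.64, 4.51 and 4.13, below the median of all probe sets of 6.14. These files hold no detection calls, so whether the probe sets of those 3 genes saw their target is not known here. A signal depends on the probes as well as on the mRNA, so levels of different genes were not compared.

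Over all 33 arrays the median SD of a member was 0.096, against 0.219 over all 6765 genes. The steadiest were small subunit genes, with an SD of 0.055 for RPS20, 0.057 for RPS27A, which encodes ubiquitin fused to a ribosomal protein, and 0.058 for RPS3A. Genes often used as references in heart tissue were close to these, with 0.087 for RPLP0, 0.086 for RPL13A and 0.084 for RPL32. Each SD is that of the brightest probe set, and dimmer sets of these genes varied more. A dimmer RPS27A set ran from 6.62 to 9.15 over the arrays. Dimmer sets ran from 8.21 to 8.95 for RPLP0, 6.42 to 7.26 for RPL13A and 7.12 to 8.01 for RPL32. The largest SDs belonged to RPL30 (0.321), RPL22L1 (0.318), RPL37 (0.306), RPL3 (0.30) and RPL7L1 (0.297). RPL3 therefore varied more than any other of the 54 bright canonical genes.

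After 120 min of banding the bright canonical subunits had moved little. RPS19BP1 and 2 of the 5 relatives had changed, and this 40% of the relatives is near the share of all genes called. The relatives also had dimmer signals than the bright canonical subunits (means from 9.30 to 11.3). Over the 11 pigs 4 members rose and 5 fell (14.1% of the 64), against 29.0% of all probe sets (11.6% higher, 17.4% lower) and 33.9% of all genes (13.1% higher, 20.8% lower) called in this comparison. The median change of the members was -0.05, with 55 of 64 below 0, and the median of all genes was -0.02. Of the 54 bright canonical genes 2 fell and none rose. The 95% interval of the change lay within 0.2 of 0 (1.15-fold) for 51 of these 54 and within 0.3 (1.23-fold) for all 54, bounds that were chosen after the values were seen. In a biopsy, fewer cells of a type and less RNA per cell cannot be told apart.

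**Figure D1:**
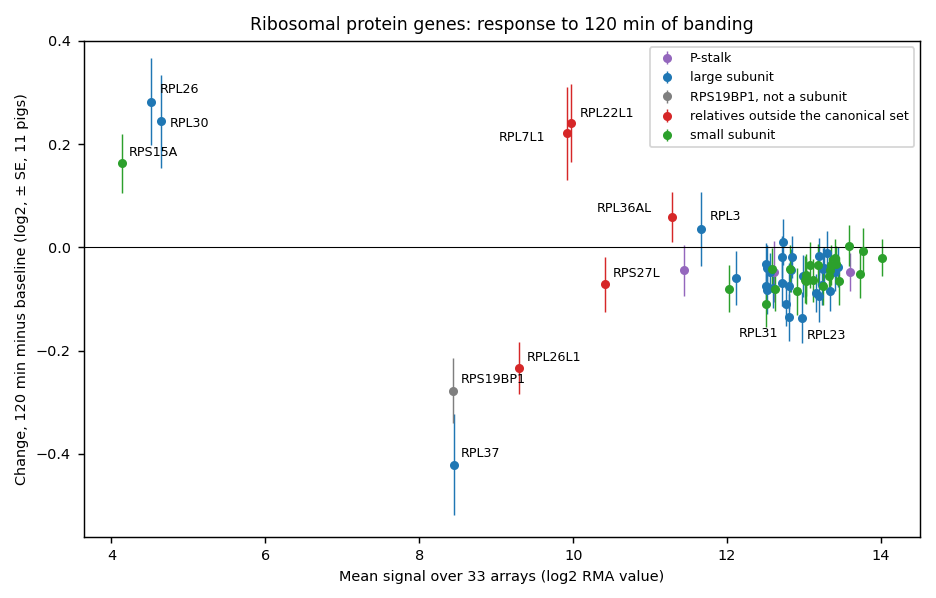
Change from baseline to 120 min of banding (log2, mean of 11 pigs, bars SE) against the mean signal over 33 arrays (log2) for the 64 genes, coloured by class. The 54 bright canonical genes form a tight group just below 0 at signals from 11.4 to 14.0, and the genes farther from 0 lie at lower signals.

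A small shift of the bright canonical genes had the same direction in each animal, and the median over all genes moved the same way in most of them. The mean signal of the 54 bright canonical genes ranged from 12.92 to 13.05 in the shunt arm at baseline (median 13.00) and from 12.89 to 12.99 at 120 min (median 12.94). For the control arm the range was from 12.92 to 13.03 (median 12.97) at baseline and from 12.86 to 12.97 (median 12.94) at 120 min. These groups overlap, but the mean change was below 0 within 11 of 11 pigs, at -0.053 ± 0.048 (SD), and between 27 and 50 of the 54 genes had a negative change in a given pig, with the 27 in shunt pig 4. The median change of all genes was below 0 in 8 of 11 pigs and ranged from -0.08 to 0.03, so the shift is not shown to be particular to these genes. With each array centred on its brightest non-member probe sets the zero moves by -0.01.

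Among the large subunit proteins RPL31, which lies at the exit of the peptide tunnel, fell by 0.14 ± 0.05 (adjusted p = 0.0271, lower in 10 of 11 pigs). RPL23 fell by 0.14 ± 0.05 (adjusted p = 0.0393), with changes from -0.38 to -0.03 that were negative in 11 of 11 pigs. Neither call is firm, and other probe sets of RPL23 changed by 0.75 and 0.08, as given further on. RPL31 no longer passed without shunt pig 3, shunt pig 4 or control pig 4, and RPL23 no longer passed when any 1 of 9 of the 11 pigs was left out.

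RPL37, a zinc-binding protein of the large subunit, had the largest fall among the members. Its signals in the control arm were 8.83, 8.76, 8.77, 8.50 and 8.61 at baseline and 8.43, 8.38, 8.31, 8.60 and 8.48 at 120 min. In the shunt arm they ran from 8.46 to 8.88 (median 8.76) and then from 7.35 to 8.50 (median 8.30). Only control pig 4 was higher at 120 min than at baseline, and shunt pig 4 was far below the rest. The change was -0.42 ± 0.10 (adjusted p = 0.00198).

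The 3 dim canonical genes were called higher, RPL26 by 0.28 ± 0.08 (adjusted p = 0.0136), RPL30 by 0.24 ± 0.09 (adjusted p = 0.0424) and RPS15A by 0.16 ± 0.06 (adjusted p = 0.0369). They were higher in 8, 7 and 9 of 11 pigs. RPL30 and RPS15A did not pass when any of several single pigs was left out, and all 3 lost their call without the pig block.

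Most members of the panel with further known roles had small changes that did not pass. The P-stalk, which recruits the elongation factors, had changes of -0.05 ± 0.04 for RPLP0, -0.05 ± 0.06 for RPLP1 and -0.04 ± 0.05 for RPLP2. Of the MDM2-binding proteins RPL23 fell at its bright set but not at its other sets, so its direction is not settled. RPL5 and RPL11 had changes of -0.02 ± 0.04 and -0.08 ± 0.04 (adjusted p = 0.747 and 0.113). RPS6, the substrate of the S6 kinases, had a change of -0.05 ± 0.04, RPSA, also known as the laminin receptor, -0.04 ± 0.04, RPS4X, whose gene is X-linked, -0.08 ± 0.04, RPS27 -0.06 ± 0.04 and RPS27A -0.03 ± 0.04. Apart from RPL23, none of these passed the test.

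The relatives of canonical subunits moved in both directions. RPL22L1 can replace RPL22 in the large subunit. Its signals in the control arm were 9.69, 10.02, 9.85, 9.94 and 9.61 at baseline and 10.02, 10.18, 9.91, 9.79 and 9.88 at 120 min. In the shunt arm they ran from 9.19 to 10.01 (median 9.74) and then from 9.77 to 10.33 (median 10.04). The levels of the 2 times overlap, but RPL22L1 was higher at 120 min in 10 of 11 pigs, all except control pig 4. It rose by 0.24 ± 0.07 (adjusted p = 0.0172), a call that was lost without shunt pig 3 (adjusted p = 0.0662) and without the pig block (adjusted p = 0.142).

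RPL26L1 is a close relative of RPL26. Control-arm signals were 9.17, 9.26, 9.47, 9.38 and 9.30 at baseline and 8.82, 9.08, 9.20, 9.24 and 9.33 at 120 min. In the shunt arm they ran from 9.29 to 9.69 (median 9.56) and then from 9.18 to 9.42 (median 9.21). RPL26L1 fell by 0.23 ± 0.05 (adjusted p = 0.000965), was lower in every pig except control pig 5, and passed without any 1 pig. RPL7L1, a nucleolar protein of large subunit assembly, had a change of 0.22 ± 0.09 that did not pass (adjusted p = 0.0702). RPL36AL at 0.06 ± 0.05 and RPS27L, a p53 target, at -0.07 ± 0.05 did not pass.

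RPS19BP1, also known as AROS, binds RPS19 and the deacetylase SIRT1. Control-arm signals were 8.82, 8.81, 8.54, 8.58 and 8.78 at baseline and 8.38, 8.50, 8.49, 8.47 and 8.74 at 120 min. In the shunt arm they ran from 8.39 to 8.72 (median 8.51) and then from 7.93 to 8.50 (median 8.17). It fell by 0.28 ± 0.06 (adjusted p = 0.00153) and was lower in 11 of 11 pigs.

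Each relative was then set against its canonical partner within the pig, for the 3 pairs in which both partners gave a bright signal, which were chosen after the values were seen. The change of RPL22L1 exceeded that of RPL22 by 0.33 ± 0.22 (SD, n = 11 pigs) and in 10 of 11 pigs (exact sign-flip permutation test, two-sided, p = 0.00195, 0.00439 adjusted over 3 pairs). RPL22 itself had a change of -0.09 ± 0.04 that did not pass (adjusted p = 0.0775). The change of RPL7L1 exceeded that of RPL7 by 0.29 ± 0.22 (SD, n = 11 pigs), also in 10 of 11 pigs (exact p = 0.00293, 0.00439 adjusted). RPS27L and RPS27 differed by -0.01 ± 0.14 (SD, n = 11 pigs, exact p = 0.852). In all 3 pairs the relative had the dimmer signal (9.97 against 13.2, 9.92 against 12.7 and 10.4 against 13.1). Some dim probe sets also changed more than bright sets of the same gene, as given further on, so a difference between relative and partner cannot be told apart from one between dim and bright probe sets.

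Taken by arm, 1 member rose and 4 fell at 120 min in the shunt arm, against 24.1% of all probe sets (9.75% higher, 14.3% lower) and 28.2% of all genes called. They were RPL22L1 at 0.33 ± 0.10, RPL37 at -0.56 ± 0.13, RPS19BP1 at -0.35 ± 0.08, RPL26L1 at -0.28 ± 0.07 and RPL23 at -0.19 ± 0.07. Among the control pigs limma called none of the 64, against 6.73% of all probe sets and 7.02% of all genes. There 1 member, RPL26L1, had an unadjusted p under 0.05, as had 4955 of 23999 probe sets. The difference between the arms passed for no member and for 0% of all probe sets, and no member had an unadjusted p under 0.05 there. The values of the arms lay side by side for RPL26L1 (-0.28 and -0.18) and RPL37 (-0.56 and -0.26). The smallest p among the differences was that of RPL37, at -0.30 ± 0.20 (95% interval -0.71 to 0.10, adjusted p = 0.816). Before banding limma found no member to differ between the arms, against 0.0208% of all probe sets and 0.0443% of all genes. There 1 member, RPS19BP1, had an unadjusted p under 0.05, as had 2820 of 23999 probe sets.

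**Figure D2:**
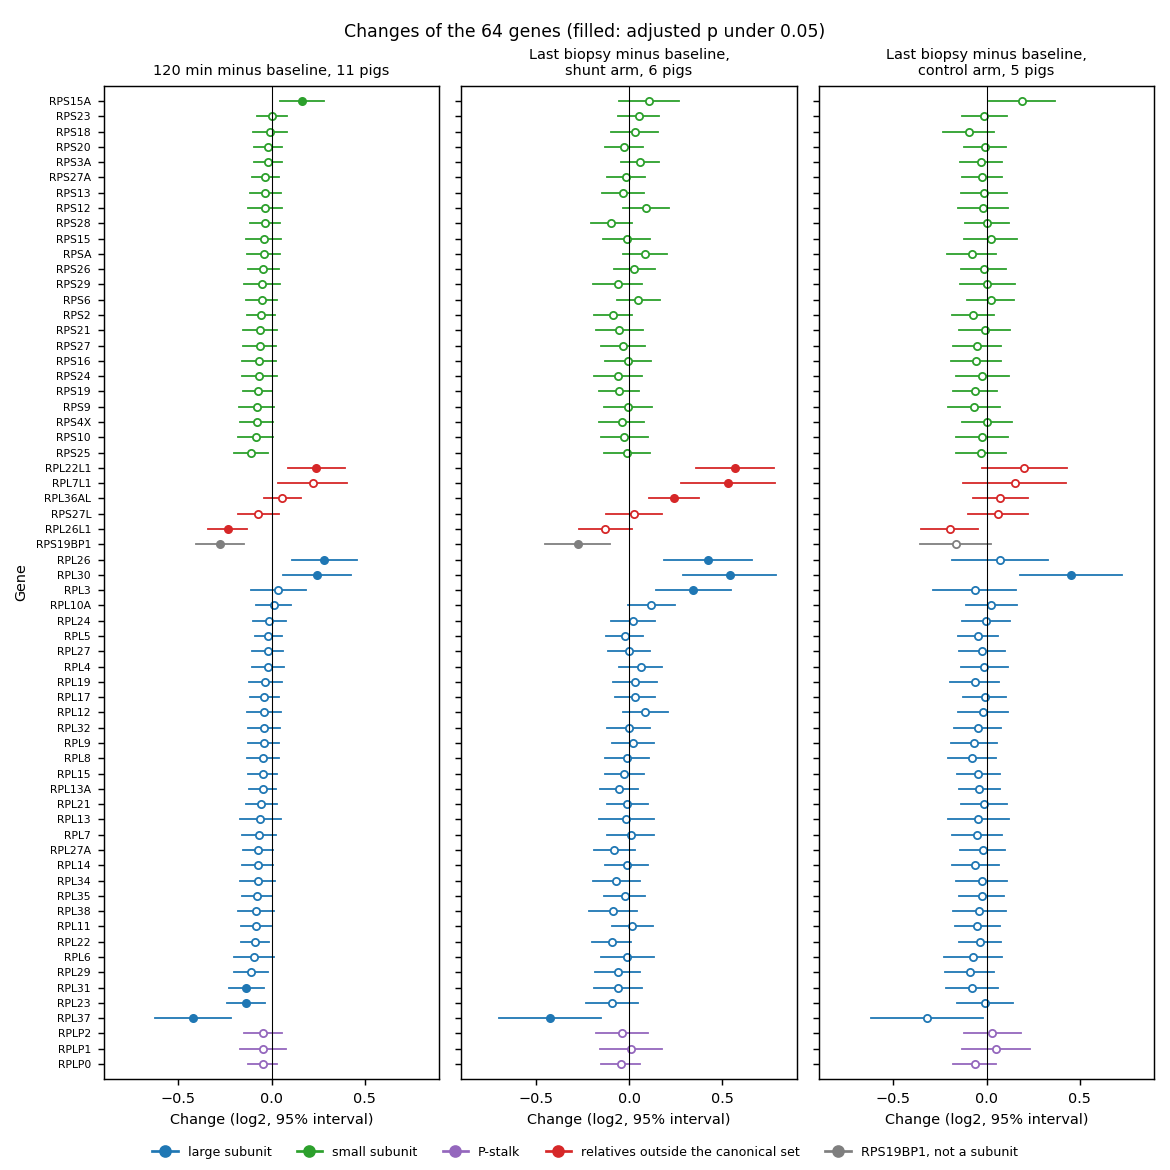
Change (log2) with its 95% interval for each of the 64 genes at 120 min in 11 pigs and at the last biopsy in the shunt arm (6 pigs) and the control arm (5 pigs). Filled points passed the test (9, 8 and 1 genes), and in each panel most of the intervals of the canonical subunits lie close to 0.

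In the last 60 min no member changed in either arm by limma, and 0% of all probe sets were called in each. At an unadjusted p under 0.05 there were 5 members in the shunt arm (of 2146 probe sets) and none in the control arm (of 737). These 5 were RPL3 at 0.25 ± 0.10 (adjusted p = 0.435, higher in 6 of 6 pigs), RPL22L1 at 0.24 ± 0.10, RPL36AL at 0.15 ± 0.07, RPL26L1 at 0.15 ± 0.07 and RPL12 at 0.13 ± 0.06. The negative changes with the smallest p there were RPS15A at -0.10 ± 0.08, RPL5 at -0.03 ± 0.05 and RPS28 at -0.02 ± 0.05, and none passed. The smallest p of the control arm belonged to RPL30 at 0.27 ± 0.13, RPS27L at 0.13 ± 0.08 and RPS6 at 0.08 ± 0.06 among positive changes. Among negative ones they were RPL26 at -0.18 ± 0.13, RPS18 at -0.08 ± 0.07 and RPL8 at -0.05 ± 0.06, and none passed.

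The mean of the 54 bright canonical genes moved back by 0.054 ± 0.055 (SD) in the shunt arm, upward in 5 of 6 pigs, and by 0.013 ± 0.050 in the control arm, upward in 3 of 5. The difference between the arms in the last 60 min passed for no member and for 0% of all probe sets, and no member had an unadjusted p under 0.05. RPL3 had the smallest p, at 0.29 ± 0.14 (95% interval -0.01 to 0.59).

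From baseline to the last biopsy, called the whole course here, 3 of the 5 relatives and RPL3 rose in the shunt arm. The other bright canonical genes did not pass. With only 5 relatives, their 60% called rests on few genes beside the 40.3% of all genes. In all, 6 members rose and 2 fell in that arm (12.5% of the 64), against 32.6% of all probe sets (13.3% higher, 19.2% lower) and 40.3% of all genes (16.7% higher, 23.6% lower) called. The median change of the members was -0.01, that of all genes -0.02. In the control arm 1 member, the dim RPL30, rose by 0.45 ± 0.13 (adjusted p = 0.0324), against 8.79% of all probe sets and 9.98% of all genes. That call was lost without control pig 1, 2 or 5. The comparisons share their baseline arrays with those at 120 min, so their values are given side by side and not as separate support.

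RPL22L1 reached 10.83, the highest signal it had on any array, in shunt pig 1. At the last biopsy its signals ran from 9.69 to 10.83 (median 10.36) in the shunt arm and were 9.996, 10.54, 9.78, 9.91 and 9.90 in the control arm. It rose by 0.57 ± 0.10 (1.48-fold, adjusted p = 0.000117, higher in 6 of 6 pigs) in the shunt arm, where shunt pig 4 was barely above its baseline at 0.01. The control arm had a change of 0.20 ± 0.11 (adjusted p = 0.304), with 3 pigs higher and 2 lower.

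RPL7L1 had a course of similar size. In the shunt arm its signals ran from 9.59 to 9.95 (median 9.75) at baseline and from 9.81 to 10.90 (median 10.34) at the last biopsy. Those of the control arm were 9.60, 9.61, 9.78, 9.66 and 9.73 and then 9.85, 10.10, 9.97, 9.59 and 9.62. It rose by 0.53 ± 0.12 in the shunt arm (adjusted p = 0.00156, higher in 6 of 6 pigs), and the control arm had a change of 0.15 ± 0.13 (adjusted p = 0.587). Within the pigs of the shunt arm RPL22L1 exceeded RPL22 by 0.66 ± 0.40 (SD) and RPL7L1 exceeded RPL7 by 0.52 ± 0.39 (SD), each in 6 of 6 pigs (exact sign-flip test, p = 0.0312, the smallest that 6 pigs allow, 0.0469 adjusted over 3 pairs). In the control arm RPL22L1 exceeded RPL22 by 0.24 ± 0.22 (SD) in 5 of 5 pigs (exact p = 0.0625, the smallest that 5 pigs allow, 0.188 adjusted over 3 pairs), and RPL7L1 exceeded RPL7 by 0.20 ± 0.21 in 3 of 5 (exact p = 0.25).

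RPL36AL is nearly identical in protein to RPL36A. Signals of the shunt arm ran from 11.06 to 11.29 (median 11.20) at baseline and from 11.25 to 11.59 (median 11.44) at the last biopsy. Those of the control arm were 11.21, 11.19, 11.41, 11.16 and 11.19 and then 11.39, 11.42, 11.26, 11.15 and 11.33. It rose by 0.24 ± 0.07 in the shunt arm (adjusted p = 0.00577, higher in 6 of 6 pigs), and the control arm had 0.07 ± 0.07.

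RPL3, a protein of the peptidyl transferase centre, has a muscle relative, RPL3L, that was not analysed here. RPL3 signals in the shunt arm ran from 11.10 to 11.99 (median 11.50) at baseline and from 11.41 to 12.16 (median 12.07) at the last biopsy. Those of the control arm were 11.90, 11.86, 11.23, 11.73 and 11.61 and then 11.75, 12.07, 11.05, 11.52 and 11.60. It rose by 0.34 ± 0.10 in the shunt arm (adjusted p = 0.00795, higher in 5 of 6 pigs), where shunt pig 4 alone was lower, and the control arm had -0.06 ± 0.11 (adjusted p = 0.802). The call in the shunt arm was lost after quantile normalisation of the deposited values (adjusted p = 0.0528).

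**Figure D3:**
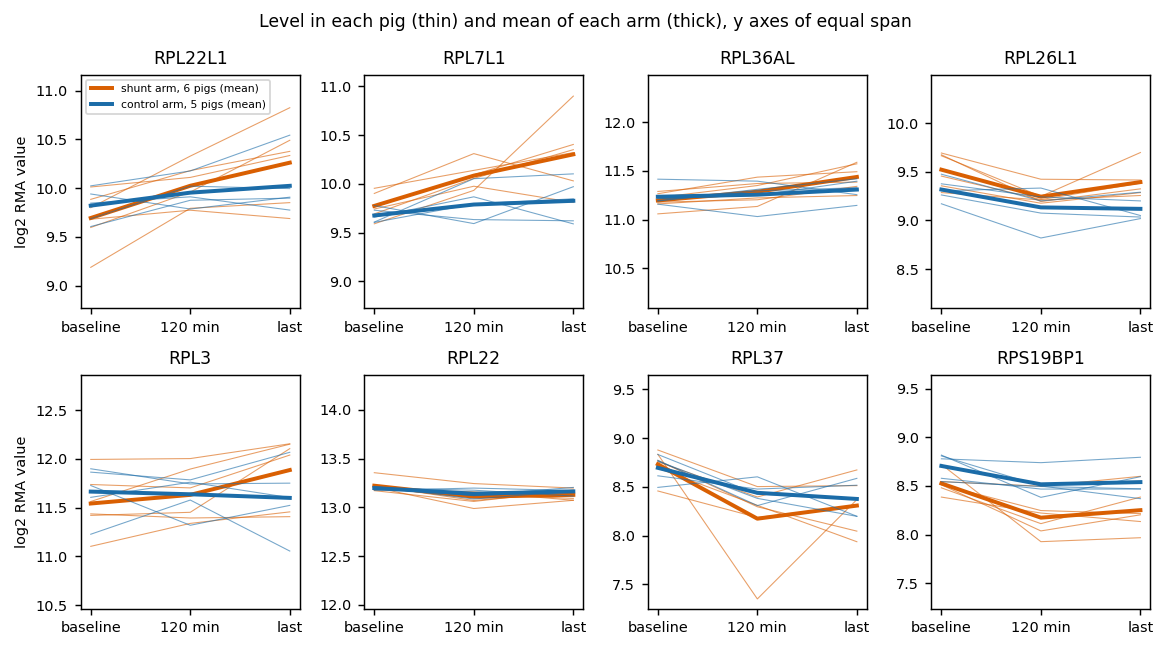
Signal (log2) at baseline, at 120 min and at the last biopsy in each pig (thin lines) and as the mean of each arm (thick lines; orange shunt arm, 6 pigs; blue control arm, 5 pigs) for 8 genes, on y axes of equal span. RPL22L1 and RPL7L1 climb in the shunt arm to means of 10.26 and 10.30, and RPL37 has 1 shunt pig at 7.35 at 120 min. RPL22 moves little on this span, with a change of -0.09 at 120 min over the pigs of both arms that did not pass.

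The dim RPL30 and RPL26 rose by 0.54 ± 0.12 (adjusted p = 0.00114) and 0.42 ± 0.11 (adjusted p = 0.00565) in the shunt arm. RPL37 and RPS19BP1 stayed below baseline there, with falls of 0.42 ± 0.13 (adjusted p = 0.0156) and 0.27 ± 0.08 (adjusted p = 0.0143), of which the first was lost without shunt pig 3 or 6 and the second without shunt pig 3. RPL22 was the next negative change by p, at -0.09 ± 0.05, and did not pass. For the control arm RPL26L1 at -0.20 ± 0.07, RPL37 at -0.32 ± 0.15 and RPS19BP1 at -0.17 ± 0.09 were the negative changes with the smallest p, RPS15A at 0.19 ± 0.09 was the next positive one after RPL30, and none of these 4 passed.

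Whether the whole-course change differed between the arms was tested for every member, and by limma none passed, against 0.00417% of all probe sets and 0.0148% of all genes. At an unadjusted p under 0.05 there were 4 of the 64 members. That is a smaller share than the 999 of 6765 genes and 2922 of 23999 probe sets at the same limit. RPL3 differed by 0.41 ± 0.14 (95% interval 0.11 to 0.71, adjusted p = 0.248), RPL7L1 by 0.38 ± 0.18, RPL22L1 by 0.36 ± 0.15 and RPL26 by 0.35 ± 0.17. So the rises in the shunt arm are not shown to differ from the course under banding alone. In the array sets, the whole-course change of RPL22L1 averaged 0.65 ± 0.45 (SD) in the set of shunt pigs 1 to 4, 0.41 ± 0.12 in that of pigs 5 and 6, and 0.20 ± 0.25 among the controls. For RPL3 these means were 0.40 ± 0.32, 0.23 ± 0.10 and -0.06 ± 0.17.

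Markers of some other cell types moved in the same biopsies. Neutrophil and monocyte markers (6 of 7 measured) averaged a change of 0.42 at 120 min, higher in 10 of 11 pigs, and 1.05 over the whole course in the shunt arm against 0.36 in the control arm. Their mean signal had medians of 5.22, 5.79 and 6.12 at the 3 times in the shunt arm and 5.15, 5.17 and 5.53 in the control arm. Smooth muscle and pericyte markers (5 of 6) averaged 0.30 at 120 min, and 0.63 and 0.17 over the whole course in the shunt and control arms. Resident macrophage markers (4 of 6) averaged 0.29, and 0.41 and 0.31. Erythrocyte markers (3 of 5) averaged -0.45 at 120 min, and 0.42 (higher in 5 of 6 pigs) and -0.71 (higher in 1 of 5). Lymphocyte markers (5 of 7) averaged -0.11, and -0.00 and -0.20. Endothelial markers (7 of 7) averaged 0.01, and 0.03 and -0.01, and fibroblast markers (4 of 6) 0.02, and 0.04 and 0.06. At 120 min 3 neutrophil and monocyte, 2 smooth muscle and pericyte and 2 resident macrophage markers were called higher, and none lower. There 1 lymphocyte marker was lower, 1 endothelial higher and 2 lower, and 1 fibroblast higher and 1 lower (33.9% of all genes called). No erythrocyte marker passed in these comparisons. Cardiomyocyte markers averaged -0.04 at 120 min and -0.12 and -0.01 over the whole course. The part of these shifts in the rises of RPL22L1, RPL7L1, RPL36AL and RPL3 was not tested. The 3′ minus 5′ signal of GAPDH, a measure of RNA integrity, had group means from 0.67 to 0.96, lower in the shunt arm at each time.

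A gene with several probe sets gives a check that does not depend on the choice of the brightest. The 64 members had 96 probe sets, and 24 genes had more than 1. Of the 32 other sets, 6 rose and 1 fell at 120 min in the 11 pigs (background again 29.0%). The fall was that of the second bright set of RPL31, at -0.14 ± 0.05, the same as its first. The identifiers of both RPL31 sets differ only in their suffix, so this match may not be an independent check. The second bright set of RPL27 had a change of -0.02, as had the first.

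A dim set in each of 4 genes, named after their values were seen, rose in 11 of 11 pigs, and the bright sets of the same genes had changes from -0.14 to -0.02. For RPL23 this dim set lay in the control pigs at 8.55, 8.61, 8.85, 8.53 and 8.59 at baseline and at 9.15, 8.98, 8.86, 9.01 and 9.18 at 120 min. Among the shunt pigs it ran from 7.93 to 8.40 (median 8.12) and then from 8.94 to 9.32 (median 9.26). The baseline and 120 min groups did not overlap in either arm. The gap in the control arm was narrow, and control pig 3 changed by 0.01 at this set. This set rose by 0.75 ± 0.08 while the bright set of RPL23 fell by 0.14 ± 0.05, so both passed in opposite directions. A further set of RPL23 of much the same brightness (8.76) had a change of 0.08 ± 0.10, with 5 pigs higher and 6 lower, and did not differ from the bright set by the test (adjusted p = 0.160 over the 32 sets). A further set of RPS28 (8.44) had a change of 0.13 ± 0.06, with 8 pigs higher and 3 lower.

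Dim sets of the same gene thus need not move alike. RPL34, a large subunit protein, had a dim set that rose from a control-arm median of 4.98 to 5.53 and a shunt-arm median of 4.96 to 5.97, also without overlap, a change of 0.85 ± 0.10. The dimmest sets of RPL27 and RPS28 rose by 0.62 ± 0.08 and 0.61 ± 0.09. Within the pig, the dim set exceeded the bright one by 0.93 ± 0.34 (SD) for RPL34, 0.88 ± 0.46 for RPL23, 0.64 ± 0.30 for RPS28 and 0.64 ± 0.26 for RPL27. In each of these 4 genes the exact sign-flip p was 0.000977, the smallest that 11 pigs allow (0.00625 adjusted over the 32 sets). A dim set of RPL7 (mean signal 3.95) had the same p with a smaller difference, 0.35 ± 0.26 (SD), positive in 11 of 11 pigs. In all, 7 of the 32 other sets differed from the bright set of their gene, each with the larger change in the dimmer set.

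**Figure D4:**
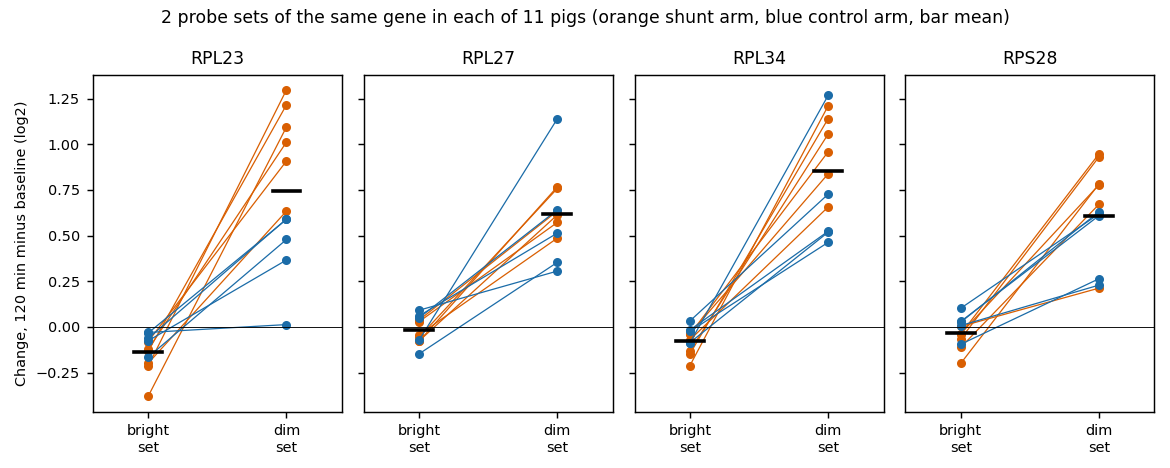
Change from baseline to 120 min (log2) in the bright and a dim probe set of RPL23, RPL27, RPL34 and RPS28, with 1 line per pig (orange shunt arm, 6 pigs; blue control arm, 5 pigs) and black bars for the mean of 11 pigs. The bright sets average between -0.14 and -0.02 and the dim sets between 0.61 and 0.85, and each line runs upward.

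These dim sets had mean signals of 8.93, 6.71, 5.55 and 5.81 (RPL23, RPL27, RPL34 and RPS28) against 12.8 to 13.3 for the bright sets, on arrays whose highest value was 15.2. Whether brightness limits the change that the bright sets can show was not tested, nor was which transcript each set reads. Over the whole course 8 of the 32 rose and 1 fell in the shunt arm, with 1.23 ± 0.10 for RPL23 and 1.10 ± 0.13 for RPL34. In the control arm 3 rose, RPL34 by 0.65 ± 0.14, RPL27 by 0.59 ± 0.12 and RPL23 by 0.57 ± 0.11. None of the 32 other sets passed between the arms. The largest whole-course difference was 0.84 ± 0.26, in a dimmer set of RPS27A (adjusted p = 0.194). The smallest p was that of the dim RPL23 set, which differed by 0.66 ± 0.15 over the whole course (adjusted p = 0.123). It also differed by -0.47 ± 0.10 at baseline, with no call either (adjusted p = 0.156).

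The rest of the translation machinery did not share one course. Of 29 measured genes of ribosome biogenesis (36 listed), 19 rose and 1, POLR1D, fell at 120 min, with a median change of 0.32. The nucleolar GTPase GNL3 rose by 1.15 ± 0.11, the RNA helicase DDX21 by 1.17 ± 0.14 and the box C/D protein NOP56 by 0.91 ± 0.12, each in 11 of 11 pigs. Over the whole course 24 rose in the shunt arm (median 0.64) and 7 in the control arm (median 0.29), and none fell. The shares of all genes called were 33.9% at 120 min (13.1% higher), and 40.3% and 9.98% over the whole course in the shunt and control arms, and the counts of the lists that follow stand beside the same shares.

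Elongation factors and other TOP mRNAs were closer to the ribosomal proteins. Of 17 measured (21 listed) 2 rose, HNRNPA1 by 0.28 ± 0.05 and PABPC1, the poly(A)-binding protein, by 0.15 ± 0.05, and EIF3H fell by 0.15 ± 0.04, with a median of -0.02. EEF1A1, the most abundant elongation factor in many cells, had a change of -0.03 ± 0.07. Over the whole course 4 rose and 2 fell in the shunt arm, and limma called none in the control arm (1 at an unadjusted p under 0.05).

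Of 10 measured regulators of ribosomal protein synthesis and of the MDM2 and p53 checkpoint (23 listed), 4 rose and 1 fell. MYC, which drives ribosome production, rose by 2.30 ± 0.21, the p53 target CDKN1A by 0.89 ± 0.12 and the kinase RPS6KA3 by 0.72 ± 0.09. Of the 10 listed genes of ribosome rescue 2 were measured, NEMF at 0.06 ± 0.05 and GCN1 at -0.02 ± 0.06, and neither passed.

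Mitochondrial ribosomal proteins build the separate ribosome of the organelle. Of 58 measured 20 fell and 1, MRPS7, rose at 120 min, with a median of -0.13. The share called in either direction, 36.2%, was close to the 33.9% of all genes. The falls alone were a larger share than the 20.8% of all genes called lower. MRPS5 fell by 0.31 ± 0.05, MRPS17 by 0.35 ± 0.08 and MRPL16 by 0.30 ± 0.07. Over the whole course 20 fell and 3 rose in the shunt arm. In either direction this share, 39.7%, was close to the 40.3% of all genes. The falls were again a larger share than the 23.6% of all genes called lower. By limma none was called in the control arm (1 at an unadjusted p under 0.05). No test of one list against another was made.

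**Figure D5:**
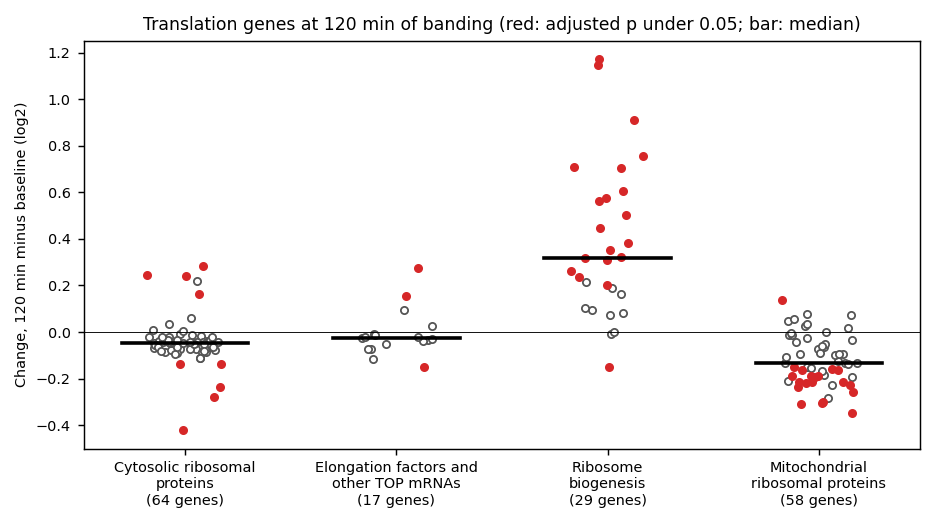
Change from baseline to 120 min (log2, mean of 11 pigs) of each gene in 4 groups of translation genes, with red points for an adjusted p under 0.05 and bars for the medians. The medians are -0.05 for 64 cytosolic ribosomal proteins, -0.02 for 17 elongation factors and other TOP mRNAs, 0.32 for 29 genes of ribosome biogenesis and -0.13 for 58 mitochondrial ribosomal proteins.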

How the data were processed

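The deposited log2 values are probe set summaries of 33 Affymetrix Porcine Genome Arrays, made by the authors with RMA per the submitters' processing notes, with no version given. They were used without further scaling or filter. Of 24123 probe sets, 124 controls were left out. Symbols came from the platform annotation (10069 probe sets with 1 symbol, 198 with several, 13732 with none of those tested), and all 96 probe sets of the members matched the same symbol in RefSeq through their Entrez identifiers. No coordinates or sequences were used.

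limma 3.58.1 in R 4.3.3 (lmFit, eBayes) was fitted to all arrays, with pig as a fixed block and a coefficient for each later biopsy within each arm (18 residual degrees of freedom), tested on simulated data, two-sided, with Benjamini-Hochberg adjustment over 23999 probe sets. Baseline arms were compared on the 11 baseline arrays. The pairing comes from the labels, which name the animal. With group means removed, the median r was 0.395 between arrays of one pig and -0.052 between pigs. The pigs are separate animals. The number of arrays limits the precision.

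Members were read out of that fit. The members and gene lists were chosen with earlier results of these data known. Genes named are a panel of 20 (17 measured), members past the threshold (up to 10 by smallest p in each direction, up to 5 between arms, or the 3 with the smallest p where fewer passed), up to 3 genes of each related list and members whose probe sets changed in opposite directions. Of the 64 chosen probe sets, 6 end in _a_at, 3 in _s_at and 1 in _x_at, suffixes of sets that can read several transcripts, and close relatives and pseudogenes of ribosomal protein genes may share signal in any set. Alternatives covered scaling, the pig block, the arrays fitted, variance moderation, array weights, low signals, probe set choice, member choice, each pig left out and each array set alone.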

Additional observations from a re-analysis of the deposited data

Results flagged for a closer look

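In the shunt arm the change of RPL37 from baseline to 120 min was -1.48 in shunt pig 4, far from the other 5 pigs, whose changes lay between -0.48 and -0.27. It was the only such sample in 54 groups of pigs examined, where chance alone gives about 1 in 20. The level came back by 1.02 at the last biopsy. RPL37 still passed at 120 min without this pig.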

How the results depend on the processing

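The numbers of members called were compared with those of the fit reported, which were 9 at 120 min in all pigs, 5 in the shunt arm, 0 in the control arm, and 8 (shunt) and 1 (control) over the whole course. Without the replicate block of the pig, 5 were called at 120 min (0 higher, 5 lower) and 0 over the whole course in the control arm, where quantile normalisation and leaving out the dimmest 30% of probe sets also gave 0, and array weights or fitting only the arrays compared gave 2. Array weights gave 8 at 120 min in the shunt arm. Centring on the brightest 10% of probe sets split the calls at 120 min into 5 higher and 3 lower in place of 4 and 5.

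The mean of a gene's probe sets gave 15 (9 higher, 6 lower) at 120 min (11 for the shunt and 1 for the control arm), and 15 and 2 over the whole course, and it turned RPL23 to 0.23 in all pigs and 0.32 in the shunt arm. The dimmest set of each gene, tried after seeing the data, gave 8 and 3 at 120 min in the shunt and control arms and 15 and 3 over the whole course. Members above the 90th percentile, also tried after seeing the data, gave 4 in all pigs, 3 in the shunt arm at 120 min, and 4 and 0 over the whole course. Canonical subunits alone gave 2 at 120 min and 4 over the whole course in the shunt arm.

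Leaving out 1 pig at a time gave 4 to 10 calls in all pigs, 3 to 7 in the shunt arm and 0 to 1 over the whole course in the control arm. The 4 came without shunt pig 3, the 3 without shunt pig 1 or 3. Each array set alone gave 0 at 120 min, against 9.87%, 1.89% and 7.46% of all probe sets, and over the whole course 3 calls for the set of shunt pigs 1 to 4, 1 for that of pigs 5 and 6 and 1 for the controls, with fewer samples in each fit. RPL26, RPL30 and RPS15A have no value with the dimmest probe sets left out, and differences between arms have none within a set. No member passed a comparison between arms in any alternative run. The cause of these shifts was not tested. Low signals limit the 3 dim canonical genes.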
